A study of Homo sapiens with 12 samples.

Results

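Cells make cholesterol from acetyl-CoA, take it up in lipoproteins, move it between membranes, store it as esters and export it. The genes followed here were 31 genes of these steps, chosen by symbol from the deposited expression table, out of 19973 genes listed. They are 18 synthesis enzymes (7 of the mevalonate arm and 11 of the squalene and sterol arm), 4 sterol-sensing genes (SREBF2, SCAP, INSIG1 and INSIG2), 4 genes of uptake and transport inside the cell (LRP8, MYLIP, NPC1 and STARD4) and 5 genes of LXR-driven efflux and of storage (NR1H2, NR1H3, ABCA1, ABCG1 and SOAT1). Each symbol matched a single gene, and each of the 31 passed the filter on low values in both cell lines.

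RNA was sequenced from H460 and A549, 2 established human non-small cell lung carcinoma (NSCLC) lines labelled wild type and grown in RPMI-1640 with fetal bovine serum, which itself carries lipoprotein cholesterol. Despite that label, the study describes both lines as homozygous for inactivating mutations of KEAP1. Each line was left non-treated (control) or treated with isovalerylspiramycin I (ISP-I), a macrolide component of carrimycin, at 10 µM for 48 h. There were 3 libraries in each of the 4 groups, 12 in all. The labels do not say whether the 3 came from separate cultures, and the study's general statement on independent experiments does not name the RNA libraries, so a p value here measures the spread between these libraries, which may be technical. Values are FPKM, the reads on a gene per kilobase of its listed length and scaled to the library's total of reads, so that levels of different genes are on the same per-length scale.

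Sterol regulatory element-binding protein 2 (SREBP2, gene SREBF2) drives the synthesis enzymes. It is held in the endoplasmic reticulum with its escort SCAP by the INSIG proteins while sterol is plentiful, and moves to the Golgi for cleavage when sterol falls. Liver X receptors (LXRs, genes NR1H2 and NR1H3) are nuclear receptors that bind oxysterols, and they turn on the transporters ABCA1 and ABCG1 and the ubiquitin ligase MYLIP, which removes lipoprotein receptors. In the lung, alveolar type II cells use cholesterol in surfactant, and tumour cells draw on the same pathway for membranes and prenyl groups.

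The libraries held 14225849 to 17874422 reads on genes, and within a group any pair of libraries differed beyond read sampling, with a chi-square per degree of freedom of 2.95 to 92.0. H460 with ISP-I held the least similar pair, libraries 2 and 3, and the H460 results whose pass or call changes without either are given with the gene. In H460 the epithelial markers EPCAM (at most 0.148 FPKM) and CDH1 (at most 0.0458 FPKM) were at or near 0, whereas KRT8 stood at 168 to 215 FPKM. In A549, KRT8 stood at 314 to 748 FPKM and EPCAM at 1.31 to 2.08 FPKM, while CDH1 was 4.75 to 5.18 FPKM in controls and 0.606 to 0.911 FPKM with ISP-I. The lung markers SFTPC and NKX2-1 were at or near 0 in A549 (at most 0.0600 and 0.0220 FPKM) and low in H460 (at most 0.0565 and 0.318 FPKM). The leukocyte marker PTPRC and the endothelial marker PECAM1 reached at most 0.0368 FPKM in any library. Of the fibroblast collagens, COL1A1 lay between 0.621 and 1.30 FPKM in all libraries, and COL3A1 was 8.19 to 9.15 FPKM in H460 controls, 2.05 to 2.44 FPKM with ISP-I and at most 0.150 FPKM in A549. The part of these differences in the results was not tested. As the RNA came from bulk cultures, fewer cells expressing a gene and less of its RNA per cell cannot be told apart.

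The cholesterol genes did not move as a block in either line, and they moved differently in the lines. In H460, HMGCS1 and IDI1, enzymes of the mevalonate arm, rose together with the lysosomal cholesterol exporter NPC1, while 10 of the 18 synthesis enzymes, SCAP, LRP8, NR1H3 and SOAT1 fell. In A549, HMGCS1, IDI1 and NPC1 also rose, and the later enzymes FDFT1, SQLE and MSMO1 and the SREBP2 target INSIG1 rose too. Change was tested in each line by fitting log2(FPKM + 1) in limma, with p values adjusted by Benjamini-Hochberg over all genes. A gene passed at an adjusted p under 0.05, and was called when it also changed by more than 1 on that log2 scale. The 10 enzymes that fell in H460 stand beside 41.5% of all genes that passed as lower there.

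In H460, 6 of the 31 genes passed as higher and 18 as lower, and 7 did not pass. Of all 13423 genes tested in H460, 27.6% passed as higher and 41.5% as lower. By the stricter rule 3 of the 31 were called higher (HMGCS1, IDI1 and NPC1) and 9 lower (ACAT2, PMVK, SQLE, EBP, DHCR7, SCAP, LRP8, NR1H3 and SOAT1), where 10.5% of all genes were called higher and 15.2% lower. The median log2 fold change was -0.50 over the 31 genes and -0.15 over all genes. In A549, 16 passed as higher and 6 as lower, with 9 not passing, where 30.5% of all 13705 genes passed as higher and 27.0% as lower. There 5 were called higher (HMGCS1, IDI1, MSMO1, INSIG1 and NPC1) and 0 lower, where 4.2% of all genes were called higher and 3.51% lower. By limma voom on the recovered reads, 1 was called lower in A549 (ABCG1). It met the read filter of that fit through its controls alone (14 reads in each, against 4, 7 and 4 with ISP-I). That filter therefore favoured a call as lower. On log2(FPKM + 1) the median in A549 was 0.24 over the 31 genes and 0.02 over all genes. Without A549 control library 3, HMGCS1, IDI1 and MSMO1 lay just within the fold limit (0.95 to 0.97) and 2 were called higher. The 6 that passed as lower in A549 became 3 without control library 1 or ISP-I library 1, 2 without ISP-I library 2 and 1 without ISP-I library 3.

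The balance in H460 depended on the scaling between libraries. When FPKM was divided by median-of-ratios factors, the all-gene median in H460 moved from -0.15 to 0.01, and the H460 counts became 9 higher and 14 lower passed, and 3 higher and 5 lower called. The all-gene balance turned with it, to 34.7% passed as higher and 32.3% as lower, and 14.4% called higher and 11.1% lower. HMGCS1, IDI1 and NPC1 were called higher under each scaling. In H460, ACAT2 (-0.86), EBP (-0.82), DHCR7 (-0.94) and NR1H3 (-0.94) lay within the fold limit under median-of-ratios scaling and still passed as lower. In A549 the same scaling gave 15 higher and 5 lower passed, beside 29.1% and 28.6% of all genes, and 4 higher and 0 lower called, beside 3.82% and 3.73%.

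**Figure D1:**
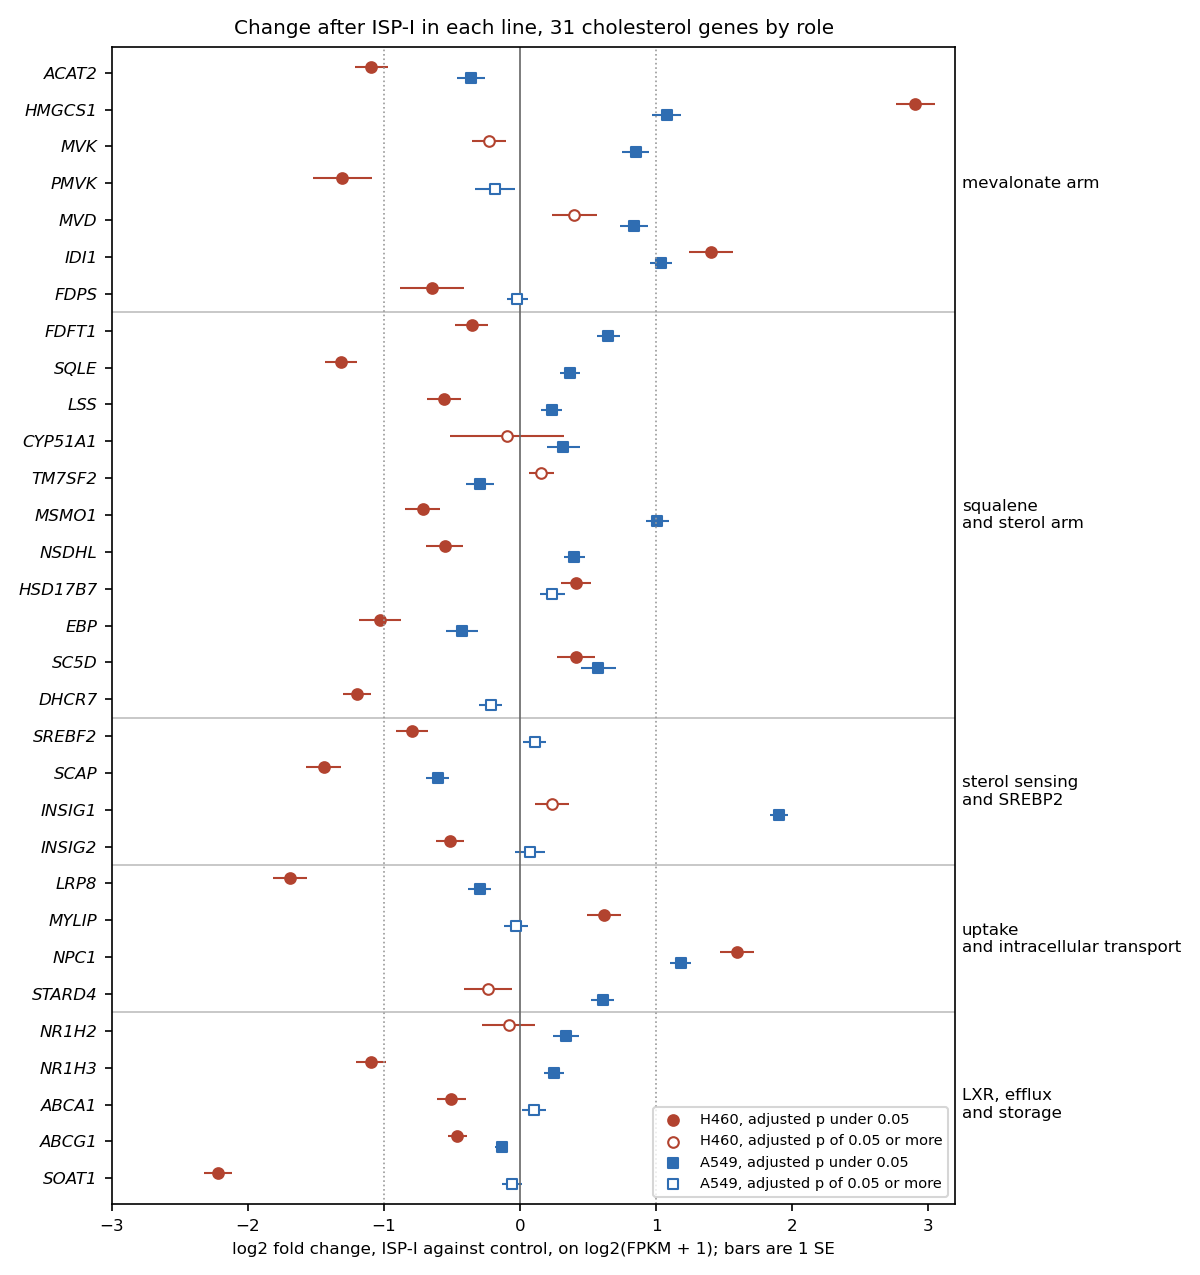
Change after ISP-I in H460 (circles) and A549 (squares) for the 31 cholesterol genes, grouped by role. The x axis is the log2 fold change on log2(FPKM + 1), bars are 1 SE from limma with 3 against 3 libraries, filled symbols passed an adjusted p under 0.05 and dotted lines mark a change of 1. HMGCS1 lies farthest to the right in H460 (2.91) and INSIG1 in A549 (1.90), and SOAT1 farthest to the left in H460 (-2.22).

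The stretch of DNA before and around the start of each gene was read for the letters of known binding motifs, since the synthesis genes are controlled together by SREBP2. The RefSeq table of promoters (GRCh38.p14, 250 bases before to 50 after the start) held 27 of the 31 genes, and ACAT2, FDFT1, SQLE and ABCG1 were not in it. A single RefSeq start was used per gene, which need not be the start listed with the expression values. The IDI1 window (chr10:1056655-1056954) lies outside the listed gene, which ends at 1049170. That of NR1H2 (chr19:50376207-50376506) lies far inside a gene listed from 50329653. The promoters of 4 genes are printed, 5′ to 3′ on the strand of the gene. HMGCS1 (chr5:43313363-43313662, minus strand) rose in both lines, MSMO1 (chr4:165327419-165327718, plus strand) fell in H460 and rose in A549, INSIG1 (chr7:155297628-155297927, plus strand) rose in A549 and did not pass in H460, and SREBF2 (chr22:41832855-41833154, plus strand) encodes the factor itself. Capitals mark the sterol regulatory element (SRE) core TCACNCCAC, the CCAAT box, the GC box GGGCGG and the E-box CACGTG on either strand.
HMGCS1: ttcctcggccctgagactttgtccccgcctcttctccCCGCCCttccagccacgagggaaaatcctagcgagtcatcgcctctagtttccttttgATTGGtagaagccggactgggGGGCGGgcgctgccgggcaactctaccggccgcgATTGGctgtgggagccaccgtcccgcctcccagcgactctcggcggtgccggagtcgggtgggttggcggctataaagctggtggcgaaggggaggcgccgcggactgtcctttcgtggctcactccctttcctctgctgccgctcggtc
MSMO1: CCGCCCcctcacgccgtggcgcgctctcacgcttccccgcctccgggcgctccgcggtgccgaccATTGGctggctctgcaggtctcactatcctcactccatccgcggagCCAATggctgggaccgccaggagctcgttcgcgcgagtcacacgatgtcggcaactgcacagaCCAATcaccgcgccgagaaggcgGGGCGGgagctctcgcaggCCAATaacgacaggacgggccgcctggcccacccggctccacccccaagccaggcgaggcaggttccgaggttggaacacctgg
INSIG1: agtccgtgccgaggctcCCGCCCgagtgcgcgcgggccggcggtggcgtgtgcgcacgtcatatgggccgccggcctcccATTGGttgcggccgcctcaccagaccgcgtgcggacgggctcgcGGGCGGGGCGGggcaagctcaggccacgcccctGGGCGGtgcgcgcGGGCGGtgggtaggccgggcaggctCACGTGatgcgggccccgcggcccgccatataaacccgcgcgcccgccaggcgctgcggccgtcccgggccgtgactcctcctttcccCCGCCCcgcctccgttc
SREBF2: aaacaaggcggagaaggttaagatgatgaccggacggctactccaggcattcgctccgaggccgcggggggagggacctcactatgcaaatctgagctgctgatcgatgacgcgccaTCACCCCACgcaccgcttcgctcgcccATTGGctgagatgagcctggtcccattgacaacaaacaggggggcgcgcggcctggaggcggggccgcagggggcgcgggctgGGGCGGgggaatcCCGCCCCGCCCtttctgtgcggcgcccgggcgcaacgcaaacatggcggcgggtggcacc
The SRE core TCACCCCAC, searched on both strands, was in 1 of the 27 promoters, that of SREBF2, where it begins at base 118 of the window on the plus strand, and in 0.425% of 27305 promoters of the same length. In the looser form TCACNCCAC it was again in SREBF2 alone among the 27 and in 1.15% of all. The overlapping sterol site ATCACNCCA was in SREBF2 too, and in 0.564% of all. CCAAT, the box bound by the partner factor NF-Y, was in 17 of the 27 (63.0%), in 35.7% of all promoters and in 36.3% of the 11115 whose gene had a mean of at least 0.1 FPKM. GGGCGG was in 25 of the 27 (92.6%), in 44.6% of all and in 68.8% of the expressed. CACGTG was in 5 (18.5%), those of LSS, SC5D, SCAP, INSIG1 and ABCA1, and in 7.43% of all and 9.83% of the expressed. The LXR direct repeat, AGGTCA followed after 4 open bases by AGGTCA, was in 0 of the 27 and in 5 of all promoters (0.0183%). Of the 4 printed promoters, MSMO1 has 4 CCAAT boxes and HMGCS1 2, with INSIG1 and SREBF2 at 1 each, and INSIG1 has 6 GC boxes and the E-box. The SRE was counted only in the forms given and in this window, so promoters without a match are not shown to lack an SRE. The LXR repeat was counted only where its letters were exact, so 0 matches does not show that the 27 promoters lack an LXR site. The ABCA1 promoter holds a near match on the opposite strand, with 1 base changed in each copy of the repeat. Near matches were not counted in the other promoters. A match is a run of letters in this window and no measured binding.

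In the mevalonate arm, which turns acetyl-CoA into farnesyl diphosphate, 2 of 7 enzymes passed as higher and 3 as lower in H460. That split is near the shares of all genes there, 27.6% and 41.5%. In A549, 4 passed as higher and 1 as lower, beside 30.5% and 27.0% of all genes. HMGCS1 (chromosome 5, 43287470 to 43313512, hg38), the synthase that makes HMG-CoA, had 5.85, 5.02 and 5.35 FPKM in H460 controls and 44.1, 56.6 and 41.4 FPKM with ISP-I. It rose 8.77-fold there, the largest rise among the 31 genes on the log2 scale (log2 fold change 2.91, SE 0.14, limma adjusted p 9.87e-07). In A549 it went from 17.0, 17.7 and 13.2 FPKM to 34.6, 33.8 and 35.3 FPKM, 2.17-fold (log2 fold change 1.08, SE 0.11, limma adjusted p 6.84e-05). So the line that started lower ended higher, with no overlap between any of the 4 groups. Of the exonic bases of HMGCS1, 37.7% are shared with an unnamed gene on the opposite strand, and the strand setting of the counting is not stated, so reads of that gene could be among those of HMGCS1.

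IDI1 (chromosome 10, 1039152 to 1049170), the isomerase that forms dimethylallyl diphosphate, had 10.2, 7.85 and 7.04 FPKM in H460 controls and 21.2, 28.0 and 22.1 FPKM with ISP-I (log2 fold change 1.41, SE 0.16, limma adjusted p 8.60e-05). In A549 it had 9.45, 9.003 and 7.86 FPKM without and 18.4, 19.4 and 19.4 FPKM with ISP-I (log2 fold change 1.04, SE 0.08, limma adjusted p 2.00e-05). The controls of the lines overlapped and the 2 rises were alike in size: the test of the difference gave 0.37 with SE 0.19 and an adjusted p of 0.117, which does not show that they are equal. Under median-of-ratios scaling that difference was 0.67 with an adjusted p of 0.00758. IDI1 has 3 named pseudogenes, and 643 of its exonic bases are shared with IDI2-AS1 on the opposite strand.

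The thiolase ACAT2, which joins acetyl-CoA units, fell in both lines. Its values were 10.4, 10.1 and 9.46 FPKM in H460 controls and 4.24, 3.57 and 4.67 FPKM with ISP-I (log2 fold change -1.09, limma adjusted p 6.47e-05), and 8.60, 7.81 and 7.75 FPKM against 6.95, 6.09 and 5.18 FPKM in A549 (-0.36, adjusted p 0.0167). The A549 fall missed the adjusted p without control library 1 or ISP-I library 2 or 3 (0.0514 to 0.0619). ACAT2 shares 17.2% of its exonic bases with TCP1 on the opposite strand, and TCP1 itself had 84.2 to 97.0 FPKM in H460 controls and 56.9 to 65.5 FPKM with ISP-I. Its part in the ACAT2 values was not tested.

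The 2 kinases of the arm differed from each other. Mevalonate kinase MVK had 4.92, 5.56 and 4.69 FPKM in H460 controls and 4.28, 3.64 and 4.62 FPKM with ISP-I, which did not pass (log2 fold change -0.23, adjusted p 0.128, limma), and its sign turned under median-of-ratios scaling. In A549 MVK rose from 3.26, 3.02 and 3.96 FPKM to 6.43, 7.07 and 7.30 FPKM (0.85, adjusted p 1.71e-04). MMAB, which meets MVK head to head on the opposite strand and overlaps 2.50% of its exonic bases, had 2.83 to 3.31 FPKM in A549 controls and 5.83 to 6.35 FPKM with ISP-I, and 4.24 to 5.13 against 3.43 to 4.39 FPKM in H460. Phosphomevalonate kinase PMVK had 68.6, 82.5 and 62.9 FPKM in H460 controls and 26.2, 21.3 and 39.5 FPKM with ISP-I (-1.31, SE 0.22, adjusted p 7.67e-04). The ISP-I library 3 was the highest of its group but stayed below each control. In A549 the PMVK groups overlapped, at 42.3 to 65.5 FPKM in controls and 42.5 to 44.7 FPKM with ISP-I (-0.19, adjusted p 0.308).

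The decarboxylase MVD rose in A549, from 7.21, 6.72 and 8.93 FPKM to 13.96, 13.7 and 15.3 FPKM (log2 fold change 0.84, limma adjusted p 2.45e-04). In H460 its ISP-I libraries spread from 5.97 to 9.83 FPKM against 5.36 to 5.92 FPKM in controls, and it did not pass (0.40, adjusted p 0.0566). MVD did pass in H460 under median-of-ratios scaling (0.65, adjusted p 0.00821) and without ISP-I library 2 (0.57, adjusted p 0.00467). Farnesyl diphosphate synthase FDPS, which closes the arm, had 20.2, 23.6 and 25.6 FPKM in H460 controls and 11.4, 11.6 and 22.02 FPKM with ISP-I. The third ISP-I library lay within the controls, and the fall (-0.65, SE 0.23, adjusted p 0.0360) no longer passed under median-of-ratios scaling (-0.38, adjusted p 0.181) or when any H460 library other than ISP-I library 3 was left out (adjusted p 0.0513 to 0.133). In A549 FDPS had 12.2 to 13.4 FPKM in controls and 11.8 to 13.6 FPKM with ISP-I (-0.02, adjusted p 0.854). FDPS has 8 named pseudogenes and shares 18.6% of its exonic bases with RUSC1-AS1 on the opposite strand.

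**Figure D2:**
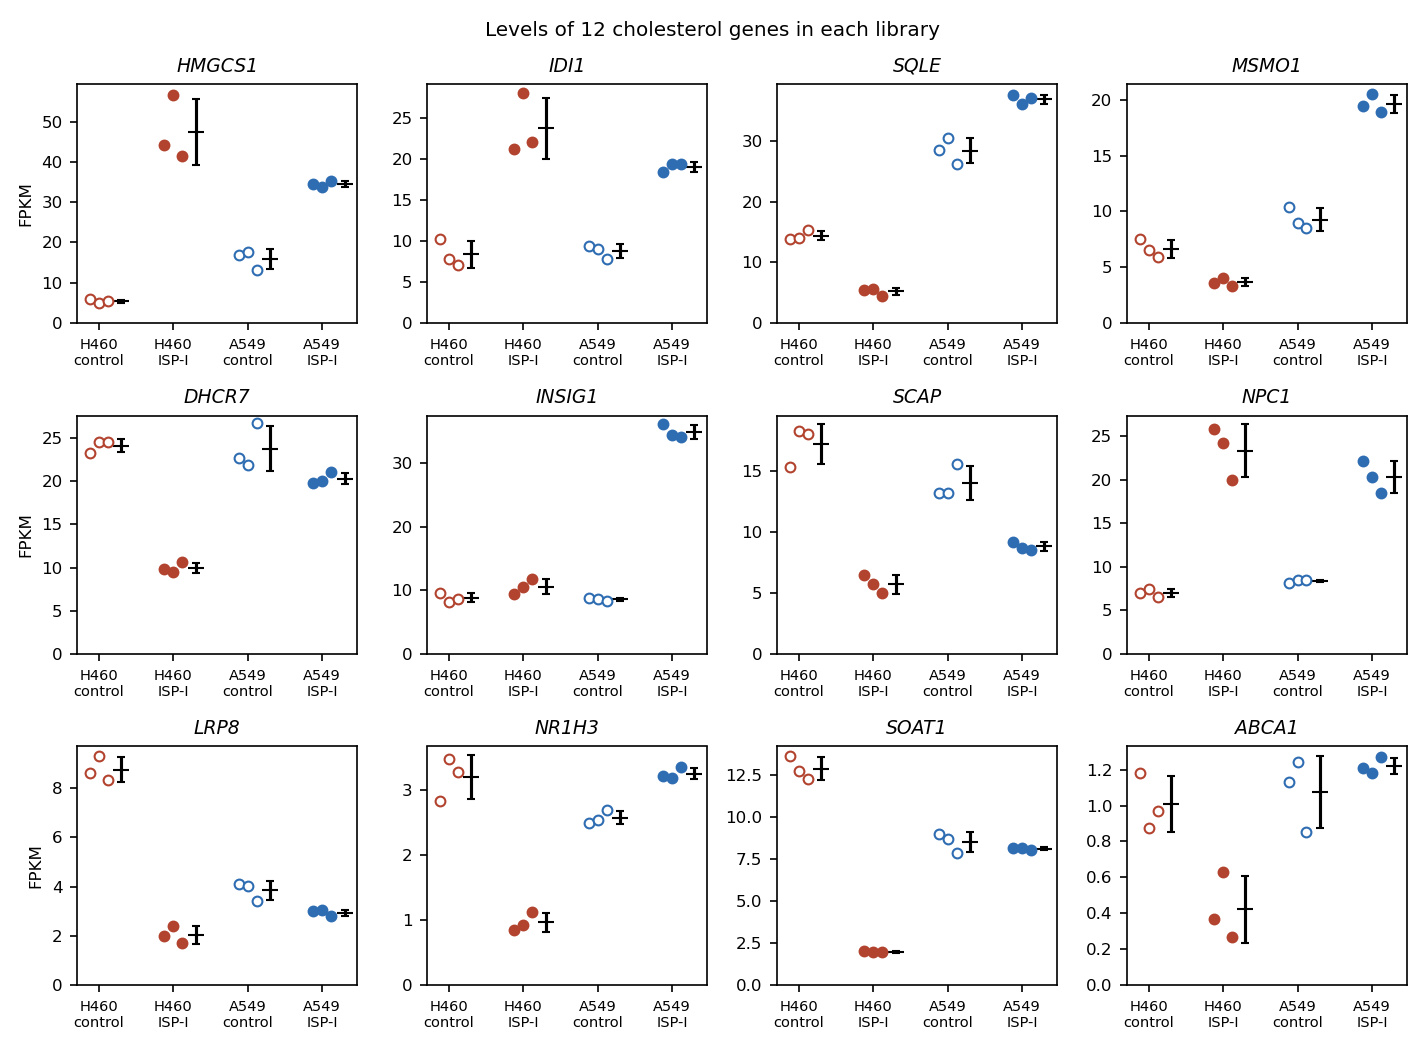
FPKM of 12 of the 31 genes in each of the 12 libraries, with H460 in red and A549 in blue, open circles for control and filled circles for ISP-I. The bar beside each group is its mean with 1 SD (n = 3), and each axis starts at 0. In H460 the ISP-I libraries of SOAT1 lie at 1.94 to 2.03 FPKM, below its controls at 12.3 to 13.6 FPKM, and the A549 groups of SOAT1 overlap.

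In the squalene and sterol arm, which cyclises squalene and trims lanosterol to cholesterol, 2 of 11 enzymes passed as higher and 7 as lower in H460, where 27.6% and 41.5% of all genes did. In A549, 7 passed as higher and 2 as lower, beside 30.5% and 27.0% of all genes. Under median-of-ratios scaling the H460 counts were 3 and 4, beside 34.7% and 32.3% of all genes. Those of A549 were 6 and 2, beside 29.1% and 28.6%. The test of the difference between the lines passed as more positive in H460 for 1 of the 11 and as more negative for 7. Of all genes, 18.6% and 34.7% passed in those directions. FDFT1, SQLE, LSS, MSMO1 and NSDHL passed as lower in H460 and as higher in A549. Squalene epoxidase SQLE, an oxygen-using control step, had 13.93, 13.99 and 15.4 FPKM in H460 controls and 5.51, 5.65 and 4.51 FPKM with ISP-I (log2 fold change -1.31, SE 0.12, limma adjusted p 2.06e-05). A549 had 28.6, 30.5 and 26.3 FPKM in controls and 37.6, 36.1 and 37.1 FPKM with ISP-I (0.37, SE 0.07, adjusted p 0.00270). The ISP-I groups of the lines then stood at means of 36.9 FPKM in A549 and 5.22 FPKM in H460.

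MSMO1 (chromosome 4, 165327667 to 165343164), the sterol C4-methyl oxidase, had 7.51, 6.56 and 5.88 FPKM in H460 controls and 3.61, 4.02 and 3.31 FPKM with ISP-I (log2 fold change -0.72, SE 0.13, limma adjusted p 9.77e-04). A549 had 10.4, 8.95 and 8.48 FPKM in controls and 19.4, 20.5 and 18.9 FPKM with ISP-I (1.01, SE 0.08, adjusted p 3.04e-05). Each ISP-I library lay outside its controls, on opposite sides in the 2 lines. Its call in A549 sat at the fold limit, since median-of-ratios scaling gave 0.97, but its adjusted p passed there too.

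Squalene synthase FDFT1 fell less clearly in H460, from 21.2, 23.0 and 21.1 FPKM to 16.8, 14.9 and 18.9 FPKM (log2 fold change -0.35, limma adjusted p 0.0284). That fall no longer passed under median-of-ratios scaling (-0.09, adjusted p 0.569) or when any H460 library other than ISP-I library 3 was left out (adjusted p 0.0624 to 0.107). In A549 FDFT1 rose from 17.9, 16.1 and 19.96 FPKM to 27.8, 29.0 and 29.2 FPKM (0.65, adjusted p 3.07e-04). The cyclase LSS had 7.42 to 9.26 FPKM in H460 controls and 4.90 to 6.005 FPKM with ISP-I (-0.56, adjusted p 0.00405), and 7.22 to 8.60 against 9.10 to 9.46 FPKM in A549 (0.23, adjusted p 0.0353). NSDHL, which removes the C4 carboxyl group, had 29.1 to 30.9 FPKM in H460 controls and 16.9 to 23.3 FPKM with ISP-I (-0.55, adjusted p 0.00604), and 20.8 to 24.6 against 28.8 to 31.1 FPKM in A549 (0.40, adjusted p 0.00273). Under median-of-ratios scaling the H460 falls of LSS and NSDHL missed the adjusted p, at 0.0614 and 0.101, as did the A549 rise of LSS at 0.0841. That rise of LSS also missed it when any A549 library other than control 3 was left out (0.0789 to 0.112).

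The last reductase, DHCR7, and the isomerase EBP fell in H460. DHCR7 had 23.3, 24.5 and 24.6 FPKM in controls and 9.79, 9.46 and 10.6 FPKM with ISP-I (log2 fold change -1.20, SE 0.10, limma adjusted p 1.70e-05). In A549 it had 22.7, 21.9 and 26.8 FPKM against 19.8, 20.1 and 21.0 FPKM, which did not pass (-0.21, adjusted p 0.0594). EBP had 4.88, 6.89 and 6.38 FPKM in H460 controls and 2.21, 2.10 and 3.01 FPKM with ISP-I (-1.03, adjusted p 4.16e-04), and 5.53, 5.20 and 7.24 against 4.51, 4.11 and 3.87 FPKM in A549 (-0.43, adjusted p 0.0146), where it missed the adjusted p without ISP-I library 2 (0.0503) or 3 (0.0605). The H460 change of EBP slipped within the fold limit, to between -0.99 and -0.94, when control library 2 or 3 or ISP-I library 1 or 2 was left out. EBP shares 36.4% of its exonic bases with an unnamed gene of the same strand, which had at most 0.185 FPKM in any library.

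The desaturase SC5D was among the few that passed as higher in both lines, at 1.79 to 2.43 FPKM in H460 controls and 2.64 to 3.78 FPKM with ISP-I (log2 fold change 0.41, limma adjusted p 0.0263), and 1.33 to 2.24 against 3.08 to 3.47 FPKM in A549 (0.58, adjusted p 0.00537). The H460 rise of SC5D missed the adjusted p without control library 2 (0.101), control library 3 (0.0730) or ISP-I library 2 (0.0729). HSD17B7, a 3-keto-sterol reductase with 2 named pseudogenes, rose in H460, with 1.41 to 1.96 FPKM in controls and 2.38 to 2.73 FPKM with ISP-I (0.41, adjusted p 0.0110, or 0.0515 without control library 3), and did not pass in A549 (0.24, adjusted p 0.0529). TM7SF2, a C14-sterol reductase, was the lowest of the enzymes in H460, at 0.446 to 0.782 FPKM in controls and 0.717 to 0.880 FPKM with ISP-I (0.16, adjusted p 0.167), and in A549 went from 3.11, 3.21 and 4.07 FPKM to 2.83, 2.64 and 2.40 FPKM (-0.30, adjusted p 0.0371), which missed the adjusted p when any ISP-I library was left out (0.0580 to 0.129).

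CYP51A1, the lanosterol demethylase, could not be read in H460. Its libraries had 1.58, 1.62 and 5.51 FPKM in controls and 1.73, 1.36 and 4.60 FPKM with ISP-I (log2 fold change -0.10, SE 0.42, limma adjusted p 0.849). In each group the third library stood apart from the other two. In A549 it had 2.19, 1.83 and 1.30 FPKM in controls and 2.49, 2.44 and 2.37 FPKM with ISP-I (0.32, adjusted p 0.0484), a rise that missed the adjusted p when any A549 library other than control 1 was left out. CYP51A1 has 3 named pseudogenes, and its listed start differs from that of the GENCODE v44 annotation by 27166 bases. It shares 68.2% of its exonic bases with an unnamed gene of the same strand, which had 0 FPKM in every library. The part of this overlap in the CYP51A1 values was not tested.

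Over the 18 synthesis enzymes, 4 passed as higher and 10 as lower in H460, with a median log2 fold change of -0.45, and 11 passed as higher and 3 as lower in A549, with a median of 0.34. The all-gene medians were -0.15 and 0.02. Of all genes, 27.6% passed as higher and 41.5% as lower in H460, and 30.5% and 27.0% in A549. Under median-of-ratios scaling the H460 enzymes split into 6 higher and 6 lower, near the all-gene shares of 34.7% and 32.3%. Their median was then -0.18, beside an all-gene median of 0.01. In the pairing of lines, 3 enzymes passed as higher in both (HMGCS1, IDI1 and SC5D), 2 as lower in both (ACAT2 and EBP) and 5 as lower in H460 and higher in A549. Of these 10, HMGCS1, IDI1, SQLE, MSMO1 and NSDHL passed in both lines whichever library was left out, and SC5D, ACAT2, EBP, FDFT1 and LSS missed the adjusted p in a line in at least 2 of those fits. Under median-of-ratios scaling the H460 falls of FDFT1, LSS and NSDHL missed the adjusted p (0.569, 0.0614 and 0.101), and those of SQLE and MSMO1 passed. The shares of all genes in these pairings were not counted. Across the 31 genes, Pearson r between the H460 and A549 changes was 0.62, beside 0.67 across 12708 genes tested in both, as a description over genes of the same libraries. The sign of the change, passed or not, was the same in both lines for 16 of the 31 genes. It was the same for 9193 of the 12708 genes.

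Among the sterol sensors, INSIG1 (chromosome 7, 155297776 to 155310235), which retains SCAP in the endoplasmic reticulum and is itself an SREBP2 target, set the lines apart most plainly. In A549 it rose from 8.78, 8.69 and 8.26 FPKM to 36.0, 34.4 and 34.1 FPKM, 4.06-fold (log2 fold change 1.90, SE 0.06, limma adjusted p 4.39e-07). In H460 the controls had 9.58, 8.17 and 8.72 FPKM and the ISP-I libraries 9.41, 10.5 and 11.8 FPKM (0.24, adjusted p 0.116). The groups overlapped in H460, although median-of-ratios scaling put INSIG1 past the adjusted p there as well (0.49, adjusted p 0.00633). The untreated lines had like levels, at means of 8.82 and 8.57 FPKM.

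SCAP (chromosome 3, 47413681 to 47477126), the escort of SREBP2, fell in both lines. It had 15.4, 18.3 and 18.1 FPKM in H460 controls and 6.51, 5.72 and 4.98 FPKM with ISP-I (log2 fold change -1.44, SE 0.13, limma adjusted p 1.97e-05). The A549 values were 13.2, 13.2 and 15.6 FPKM in controls and 9.24, 8.70 and 8.58 FPKM with ISP-I (-0.61, SE 0.08, adjusted p 4.26e-04). The difference between the lines passed (-0.84, adjusted p 5.37e-04). SREBF2 fell in H460, from 16.4, 19.0 and 17.3 FPKM to 10.4, 9.92 and 8.80 FPKM (-0.79, adjusted p 3.38e-04). In A549 it had 11.8, 13.8 and 14.02 FPKM against 14.8, 14.9 and 13.2 FPKM, which overlap (0.11, adjusted p 0.317). INSIG2, the second retention protein, fell in H460, with 1.22 to 1.73 FPKM in controls and 0.714 to 0.864 FPKM with ISP-I (-0.51, adjusted p 0.00223), and its A549 groups overlapped at 2.64 to 3.81 and 3.21 to 3.44 FPKM (0.07, adjusted p 0.603).

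NPC1 (chromosome 18, 23506184 to 23586506), which carries cholesterol out of lysosomes, rose in both lines. Its values were 7.03, 7.46 and 6.60 FPKM in H460 controls and 25.9, 24.3 and 20 FPKM with ISP-I, 3.33-fold higher (log2 fold change 1.60, SE 0.13, limma adjusted p 1.00e-05). In A549 they were 8.21, 8.47 and 8.47 FPKM in controls and 22.1, 20.4 and 18.5 FPKM with ISP-I, 2.43-fold higher (1.18, SE 0.08, adjusted p 9.69e-06). With HMGCS1 and IDI1, NPC1 was called higher in each line. RMC1, on the opposite strand, shares 6.38% of the exonic bases of NPC1. It had 7.23 to 8.47 FPKM in H460 controls and 14.9 to 18.3 FPKM with ISP-I, and 4.52 to 5.32 against 6.85 to 8.20 FPKM in A549, and its part in the NPC1 values was not tested.

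LRP8 (chromosome 1, 53242364 to 53328469), a receptor for lipoproteins and reelin, fell in H460 from 8.59, 9.30 and 8.34 FPKM to 1.99, 2.41 and 1.69 FPKM (log2 fold change -1.69, SE 0.12, limma adjusted p 6.76e-06). In A549 it went from 4.11, 4.04 and 3.41 FPKM to 3.00, 3.03 and 2.80 FPKM (-0.30, SE 0.09, adjusted p 0.0184), which missed the adjusted p without control library 1 or 2 or ISP-I library 1 or 3 (0.0510 to 0.0719). The untreated lines differed here, with H460 higher by 1.01 on the log2 scale, and after ISP-I H460 lay below A549. MYLIP, the ligase that removes such receptors, rose in H460 from 4.005, 4.37 and 4.52 FPKM to 6.39, 8.21 and 6.89 FPKM (0.62, SE 0.12, adjusted p 0.00200). A549 had 2.68, 2.44 and 2.03 FPKM against 2.33, 2.28 and 2.29 FPKM (-0.03, adjusted p 0.802). The sterol carrier STARD4 rose in A549 from 2.25, 1.88 and 1.88 FPKM to 3.38, 3.70 and 3.63 FPKM (0.61, adjusted p 4.24e-04), and in H460 its groups overlapped, at 5.03 to 6.19 FPKM and 3.38 to 5.999 FPKM (-0.24, adjusted p 0.263). Without ISP-I library 2 the H460 change of STARD4 passed as lower (-0.42, adjusted p 0.0315).

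On the side of efflux and storage, SOAT1 (chromosome 1, 179293714 to 179358680), which esterifies cholesterol for storage in droplets, had the largest fall of the 31 genes in H460 on the log2(FPKM + 1) scale. Its values were 13.6, 12.8 and 12.3 FPKM in controls and 2.03, 1.95 and 1.94 FPKM with ISP-I (log2 fold change -2.22, SE 0.10, limma adjusted p 8.42e-07). In A549 the groups overlapped, at 8.97, 8.70 and 7.83 FPKM in controls and 8.14, 8.14 and 8.002 FPKM with ISP-I (-0.06, SE 0.07, adjusted p 0.507). The difference between the lines in this response was the widest among the 31 genes on that scale. SOAT1 has no exonic overlap with another gene in the annotation.

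Of the receptors, NR1H3 (LXR alpha; chromosome 11, 47248300 to 47269033) fell in H460 from 2.84, 3.48 and 3.29 FPKM to 0.839, 0.927 and 1.13 FPKM (log2 fold change -1.10, SE 0.11, limma adjusted p 3.63e-05). In A549 it rose, from 2.50, 2.54 and 2.69 FPKM to 3.22, 3.19 and 3.35 FPKM (0.25, SE 0.07, adjusted p 0.0178). The A549 rise missed the adjusted p without control library 1 or 2 or ISP-I library 1 or 3 (0.0501 to 0.067), although its groups did not overlap. ACP2, its neighbour on the opposite strand with 4.17% of its exonic bases shared, had 6.01 to 7.78 FPKM in H460 controls and 2.32 to 3.16 FPKM with ISP-I. NR1H2 (LXR beta) was the more abundant receptor in each group. It rose in A549 from 20.4, 21.4 and 26.1 FPKM to 28.0, 29.4 and 28.7 FPKM (0.34, adjusted p 0.0152), which missed the adjusted p without control library 1 or ISP-I library 2 or 3 (0.0523 to 0.0594). Its H460 groups overlapped, at 10.5 to 12.1 FPKM and 8.05 to 14.8 FPKM (-0.08, adjusted p 0.715). NR1H2 shares 22.1% of its exonic bases with NAPSA on the opposite strand, which had at most 0.314 FPKM in any library.

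The LXR target ABCA1 (chromosome 9, 104781006 to 104928155), which loads cholesterol onto apolipoprotein A-I, was low throughout. It had 1.18, 0.876 and 0.970 FPKM in H460 controls and 0.370, 0.630 and 0.267 FPKM with ISP-I, a ratio of means of 0.418 (log2 fold change -0.50, SE 0.11, limma adjusted p 0.00326). With a pseudocount of 1 the log2 value understates the change of so low a gene, and a pseudocount of 0.1 gave -1.14. The reads behind it were 508 over the 3 controls and 239 over the 3 ISP-I libraries, a ratio per read total of 0.424 (95% exact interval 0.362 to 0.495, counting error only). In A549 the groups overlapped, at 1.13, 1.24 and 0.854 FPKM and 1.21, 1.18 and 1.27 FPKM (0.10, adjusted p 0.343).

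ABCG1, which passes cholesterol to high-density lipoprotein, rested on few reads. The H460 controls had 26, 48 and 40 reads and the ISP-I libraries 6, 3 and 0 reads, the last a library in which a count of 0 was observed. As a ratio per read total this was 0.0711 (95% exact interval 0.0317 to 0.140). The A549 controls had 14 reads in each library and the ISP-I libraries 4, 7 and 4 reads, a ratio of 0.347 (0.179 to 0.639). On the log2 scale ABCG1 passed as lower in H460 (-0.46, limma adjusted p 4.98e-04) and in A549 (-0.13, adjusted p 0.0393). It was tested because of its controls, with means of 0.417 FPKM in H460 and 0.157 FPKM in A549. The ISP-I means, 0.0281 and 0.0541 FPKM, lay under the filter of 0.1 FPKM, so the filter favoured a pass as lower. The A549 value missed the adjusted p when any of the 3 ISP-I libraries was left out. When any A549 control library was left out, the gene fell under the filter and was not tested. ABCG1 and ACAT2, EBP, SCAP and LRP8 were the 5 genes of the 31 that passed as lower in both lines, and of them SCAP did so whichever library was left out. The share of all genes that passed as lower in both lines was not counted.

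SREBP2-driven synthesis and LXR-driven efflux were set against each other in each library. The mean log2(FPKM + 1) of the 18 synthesis enzymes minus that of ABCA1, ABCG1 and MYLIP was 2.28, 2.22 and 2.44 in A549 controls and 2.70, 2.67 and 2.65 in A549 with ISP-I. All 3 ISP-I libraries lay above the controls, and the mean moved by 0.36, with the enzymes moving by 0.34 and the LXR targets by -0.02. In H460 the difference was 1.92, 1.91 and 1.93 in controls and 1.84, 1.63 and 2.07 with ISP-I, so the groups overlapped and the mean moved by -0.07. There the enzymes moved by -0.19 and the LXR targets by -0.12, and the sign of their difference turned with the settings (0.61 with a pseudocount of 0.1 and 0.04 with median-of-ratios scaling). No test was run on this difference, since the genes were picked with earlier results known. The 3 LXR targets did not move together in H460, where MYLIP passed as higher and ABCA1 and ABCG1 as lower.

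**Figure D3:**
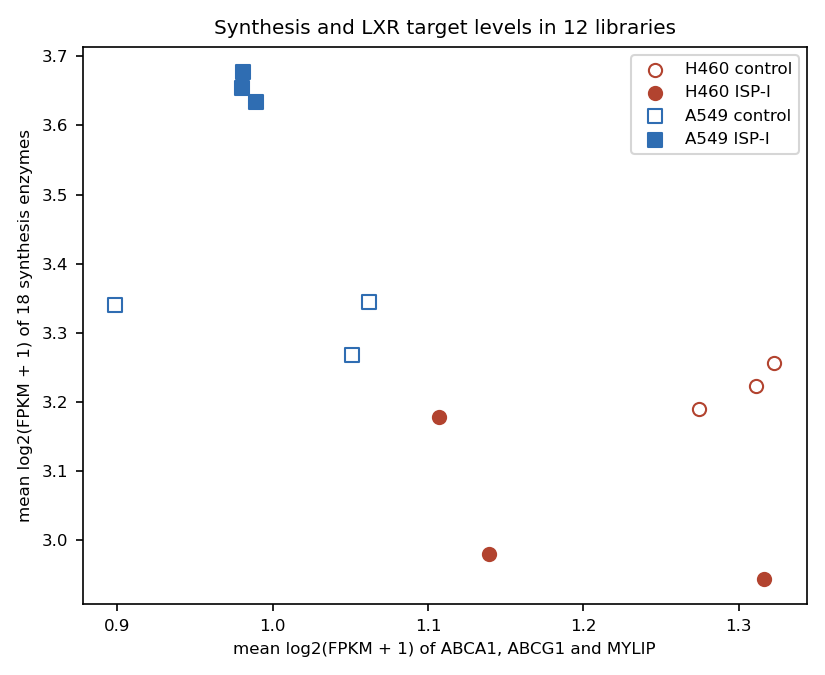
Mean log2(FPKM + 1) of the 18 synthesis enzymes (y axis) against that of the LXR targets ABCA1, ABCG1 and MYLIP (x axis), a point for each of the 12 libraries, with H460 as circles, A549 as squares and ISP-I filled. The A549 points move up with ISP-I, from a group mean of 3.32 to 3.66, and the H460 points move down, from 3.22 to 3.03, with a wide spread in the ISP-I group.

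The difference between the lines in the response was tested as an interaction over all 12 libraries, which uses the same controls as the comparisons above. Of the 31 genes, 4 passed as more positive in H460 and 20 as more negative, and 7 did not pass, where 18.6% and 34.7% of all 13953 genes passed in those directions. By the stricter rule 1 was called higher and 9 lower, where 5.93% of all genes were called higher and 10.1% lower. Under median-of-ratios scaling 6 and 19 of the 31 passed, beside 27.2% and 23.6% of all genes, and 1 and 6 were called, beside 9.3% and 5.91%. HMGCS1 was the gene with the more positive change in H460 (1.83, SE 0.18, limma adjusted p 5.48e-06). The 9 called lower were SOAT1 (-2.16), MSMO1 (-1.73), SQLE (-1.68), INSIG1 (-1.67), LRP8 (-1.39), NR1H3 (-1.35), PMVK (-1.12), MVK (-1.08) and FDFT1 (-1.002). Under median-of-ratios scaling 6 stayed past the fold limit, and MVK (-0.81), PMVK (-0.81) and FDFT1 (-0.70) kept their sign and passed the adjusted p. Next came DHCR7 (-0.98), NSDHL (-0.95) and SREBF2 (-0.90), which passed without reaching the fold limit. The genes that did not pass were MVD, IDI1, FDPS, CYP51A1, HSD17B7, SC5D and NR1H2, and without ISP-I library 3 of H460 the test passed for FDPS (-0.92, adjusted p 1.35e-04), NR1H2 (-0.64, adjusted p 0.00528) and MVD (-0.58, adjusted p 0.0124). The differences of EBP and NPC1 passed (adjusted p 0.0245 and 0.0278) but missed it in 7 and 6 of the 12 fits that left out a library.

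**Figure D4:**
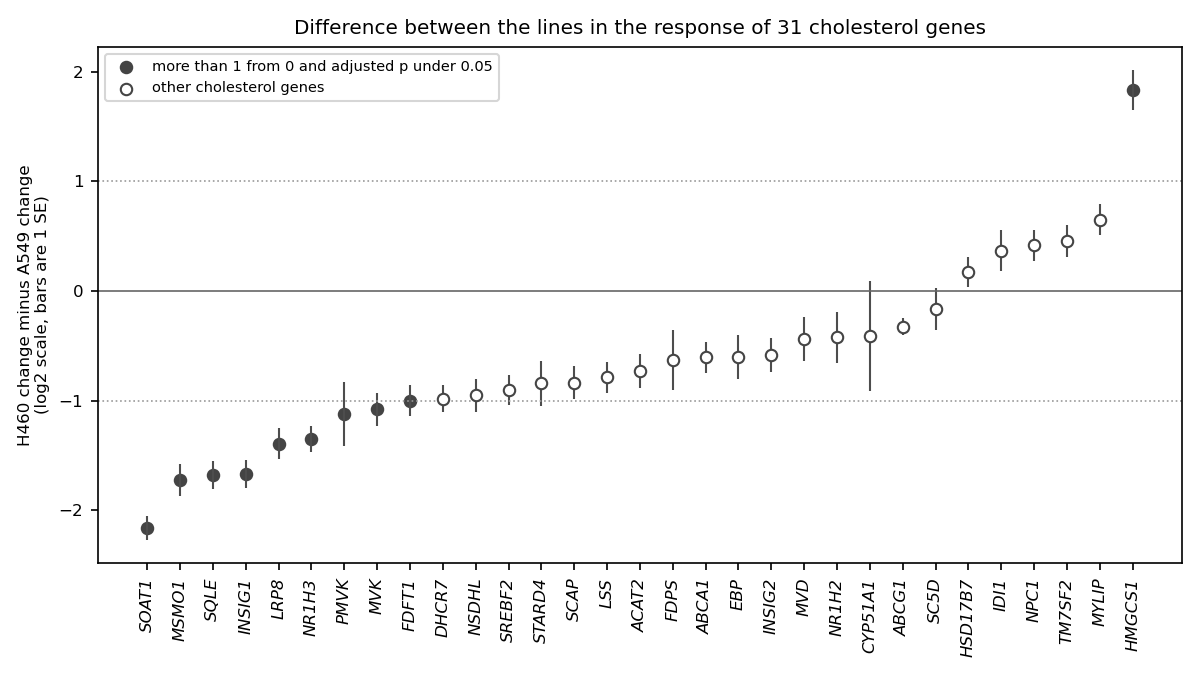
H460 change minus A549 change of each of the 31 genes on the log2 scale, in order, with bars of 1 SE from the limma interaction over 12 libraries. Filled points lie more than 1 from 0 with an adjusted p under 0.05, 9 of them below 0 from SOAT1 at -2.16 to FDFT1 at -1.002, and HMGCS1 above 0 at 1.83.

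The levels from which the lines started were compared in the 6 control libraries. Of the 31 genes, 2 were called higher in H460 and 2 lower, where 5.64% of all 13532 genes were called higher and 8.78% lower. STARD4 (5.03 to 6.19 against 1.88 to 2.25 FPKM, log2 difference 1.10, limma adjusted p 4.01e-05) and LRP8 (8.34 to 9.30 against 3.41 to 4.11 FPKM, 1.01, adjusted p 3.51e-05) were the higher ones, and LRP8 lay within the fold limit without A549 control library 3 (0.94) or H460 control library 2 (0.97). HMGCS1 (5.02 to 5.85 against 13.2 to 17.7 FPKM, -1.40, adjusted p 1.79e-05) and TM7SF2 (0.446 to 0.782 against 3.11 to 4.07 FPKM, -1.47, adjusted p 1.07e-05) were the lower ones. At any fold, 13 passed as higher in H460 and 9 as lower, where 28.6% and 31.6% of all genes did, among the latter SQLE (-0.93), NR1H2 (-0.91) and INSIG2 (-0.70). DHCR7, INSIG1, EBP and ABCA1 were among the 9 that did not pass, with differences between -0.05 and 0.03. Line and culture cannot be told apart in this comparison.

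By mean FPKM, PMVK was the highest of the 31 genes in H460 controls (71.3 FPKM), in A549 controls (51.1 FPKM) and in A549 with ISP-I (43.9 FPKM). In H460 with ISP-I, HMGCS1 was the highest (47.4 FPKM) and PMVK had 29.0 FPKM. ABCG1 was the lowest in each group, at 0.417 and 0.0281 FPKM in H460 and 0.157 and 0.0541 FPKM in A549.

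A further 51 genes of sterol handling, listed by role with earlier results of these data known, were read beside the 31. In H460, 44 were tested, and 7 passed as higher, 25 as lower and 12 did not, where 27.6% of all genes passed as higher and 41.5% as lower. Their median log2 fold change was -0.70, beside -0.15 over all genes. OSBP, a sterol carrier of the Golgi contact sites, was called higher (15.2 to 39.9 FPKM, log2 fold change 1.33, limma adjusted p 3.39e-05), and 13 were called lower, where 15.2% of all genes were. The largest falls there were in GRAMD1B, a carrier of plasma membrane cholesterol (61.1 to 4.89 FPKM, -3.41), MBTPS1, the protease that cuts SREBPs (14.6 to 2.10 FPKM, -2.33), LIPA, the lysosomal cholesteryl ester lipase (21.4 to 3.46 FPKM, -2.33) and TMEM97, a sterol-binding protein of the endoplasmic reticulum (45.7 to 8.88 FPKM, -2.25). In A549, 46 were tested, and 8 passed as higher, 19 as lower and 19 did not, where 30.5% and 27.0% of all genes passed. There 0 were called higher and 6 lower, beside 4.2% and 3.51% of all genes, and the median was -0.18, beside 0.02 over all genes. The largest there were MBTPS1 (15.3 to 5.12 FPKM, -1.41), LBR, a C14-sterol reductase of the nuclear envelope (30.7 to 11.9 FPKM, -1.30), GRAMD1B (8.58 to 3.11 FPKM, -1.22) and ABCA2, an endolysosomal lipid transporter (5.92 to 2.15 FPKM, -1.13). All 6 called lower in A549, these 4 with SREBF1 and LIPA, were also called lower in H460. The share of all genes called lower in A549 that were also called lower in H460 was not counted. Over all genes the changes in the 2 lines had a Pearson r of 0.67.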

How the data were processed

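H460 and A549 cells, control or treated with ISP-I (10 µM, 48 h), gave 3 RNA libraries per group. The authors built TruSeq libraries, used FastQC to filter the paired-end reads, HISAT2 to map them to hg38 and HTSeq (version 0.9.1) to count them, and deposited FPKM. Which annotation and strand setting HTSeq used is not given in the sources used here. The deposited table lists gene length beside the FPKM. Multiplied by length, 100% of values fell on whole numbers of reads (tolerance 0.05), and these reads were recovered.

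Of the table's lines, 4 that were pieces of an overlong cell were left out, 12 genes share a symbol with another and 1924 had no reads in any library. Columns tell line and treatment, so libraries were numbered by their order within a group.

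In each line, log2(FPKM + 1) was compared with limma 3.58.1 (R 4.3.3, trend option). Genes averaging 0.1 FPKM or more entered, and Benjamini-Hochberg adjustment ran over all of them. The lines' responses were compared by the interaction term over 12 libraries. A gene passed at an adjusted p under 0.05 and was called when it also changed by more than 1 on the log2 scale. The pseudocount of 1 shrinks the fold changes of genes whose level is near 1 FPKM or less. Intervals of read ratios are exact (95%) and cover counting error only.

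Alternatives changed the pseudocount to 0.1, raised the filter to an average of 1 FPKM or dropped it, divided FPKM by median-of-ratios factors (H460 control 1.01 to 1.04, H460 ISP-I 0.842 to 0.855, A549 1.03 to 1.09), used limma voom on recovered reads (at least 10 in 3 libraries), fitted the 12 libraries together, or left out a library. The fit was tested on simulated data. The genes, the lists and the rule to name every one of the 31 were chosen with earlier results of these data known. Exons and pseudogenes came from GENCODE v44, and promoters from RefSeq. Other steps used Python 3.11.15 with numpy 2.4.6, pandas 2.3.3 and matplotlib 3.10.9.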

Additional observations from a re-analysis of the deposited data

Results flagged for a closer look

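The response to ISP-I differed between the lines by more than 1 on the log2 scale in 10 of the 31 cholesterol genes, by the limma interaction of line and treatment with Benjamini-Hochberg adjustment. Of all 13953 genes tested, 5.93% were called higher and 10.1% lower by the same rule. The H460 change minus the A549 change was 1.83 for HMGCS1 (adjusted p 5.48e-06). It was -2.16 for SOAT1 (adjusted p 2.69e-08), -1.73 for MSMO1 (1.51e-06), -1.68 for SQLE (7.77e-07), -1.67 for INSIG1 (7.28e-07), -1.39 for LRP8 (6.61e-06) and -1.35 for NR1H3 (2.28e-06). For PMVK it was -1.12 (0.00652), for MVK -1.08 (8.23e-05) and for FDFT1 -1.002 (9.05e-05), and these 3 lay within the fold limit under median-of-ratios scaling. Under that scaling 9.3% of all genes were called higher and 5.91% lower. Of the 10 genes, FDFT1, SQLE, MSMO1 and NR1H3 passed as lower in H460 and as higher in A549, HMGCS1 passed as higher in both, and LRP8 as lower in both. For INSIG1 and MVK the change in H460 did not pass, and for SOAT1 and PMVK that in A549 did not. When single libraries were left out, the A549 changes of NR1H3 and LRP8 each missed the adjusted p in 4 of 6 fits, and the H460 change of FDFT1 did in 5 of 6. That change of FDFT1 also missed it under median-of-ratios scaling (limma adjusted p 0.569).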

How the results depend on the processing

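No paired analysis was possible because the columns of the table carry the line and the treatment and no replicate number, so a replicate block could not be fitted. Over 1601 recomputed results of single genes, 1516 kept their direction and their side of the call, 23 came past it, 31 fell back from it and 31, none of them called, turned sign.

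With a pseudocount of 0.1 the genes called were 2322 higher and 3464 lower in H460, 1336 and 1062 in A549, 1451 and 2788 for the difference between the lines, and 1363 and 2251 for the untreated lines. With voom on recovered reads they were 3057 higher in H460, 1316 and 1277 in A549, 2114 higher for the difference and 1536 and 2244 for the untreated lines, and 1 cholesterol gene was called lower in A549 and 3 higher for the difference. The gene called lower in A549, ABCG1, met the read filter through its controls alone. With median-of-ratios scaling 1298 and 825 genes were called for the difference, and 5 cholesterol genes were called lower in H460. That scaling and voom turned the sign of MVK (0.004 and 0.003), CYP51A1 (0.10 and 0.13) and NR1H2 (0.18 under each) in H460 and of SC5D for the difference (0.0825 and 0.0655). The change of synthesis minus LXR targets in H460 became 0.61 with a pseudocount of 0.1, 0.0425 with median-of-ratios scaling and 0.17 with NR1H3 added to the targets, and that in A549 became 0.58 with a pseudocount of 0.1. The cause of these moves was not tested.

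Leaving out single libraries gave, of the 31 genes, 3 called higher and 8 to 9 lower in H460, with 4 to 6 passing as higher and 16 to 18 as lower. In A549 it gave 2 to 5 called higher and 0 lower, with 12 to 15 passing as higher and 1 to 6 as lower. For the difference 1 was called higher and 7 to 11 lower, and for the untreated lines 1 to 2 higher and 2 lower. The change of synthesis minus LXR targets was -0.19 to 0.0356 in H460, above 0 without ISP-I library 2, and 0.31 to 0.42 in A549. Signs turned for genes that did not pass: in H460 CYP51A1 (-0.48 to 0.35) and NR1H2 (-0.30 to 0.11), in A549 FDPS (-0.0799 to 0.0189), MYLIP (-0.11 to 0.0339), PMVK (-0.31 to 0.0028) and INSIG2 (-0.0171 to 0.18), for the difference CYP51A1 (-0.80 to 0.0276), and between the untreated lines EBP (-0.0745 to 0.14), DHCR7 (-0.0302 to 0.11), ABCA1 (-0.12 to 0.0121), SC5D (-0.0379 to 0.20), INSIG1 (-0.0201 to 0.0829), IDI1 (-0.21 to 0.0311) and CYP51A1 (-0.082 to 0.59). The fall of FDFT1 in H460 missed the adjusted p when any control library or ISP-I library 1 or 2 was left out, and so did that of FDPS. Depth limits ABCG1, with at most 48 reads in a library, and TM7SF2 in H460, with 22 to 54 reads.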

Other observations

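The third H460 control and the third H460 ISP-I library shared a pattern that no other combination of a control and an ISP-I library of that line showed. In both, 12 genes stood more than 2-fold above each of the other two libraries of their group and above 2 FPKM (COX8A, CYP51A1, FTH1, GGCT, KRT7, MAZ, PCBP1, RAB5IF, SARS2, SRXN1, TXNDC5 and UBB), and in each of the other 8 combinations there were 0 such genes. CYP51A1 is the cholesterol gene among them. The list was found after the values were seen.

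Of the 31 cholesterol genes, 14 were highest of their group in ISP-I library 3 of H460, where 34.0% of all genes were, and 9 in ISP-I library 2, where 39.1% were. Like counts were seen in A549, with 15 in ISP-I library 1 and 14 in control library 1, beside 34.7% and 30.7% of all genes. Among the wider list of 51 sterol genes, 46 were tested for the difference between the lines. It was called higher for 1 gene, CAV1 (1.18, limma adjusted p 4.43e-06), and lower for 10, led by GRAMD1B (-2.18, adjusted p 2.44e-07). Of all genes, 5.93% were called higher and 10.1% lower. Under median-of-ratios scaling 2 of the list were called higher and 5 lower, beside 9.3% and 5.91% of all genes. GRAMD1B also differed most between the untreated lines on the higher side, at 61.1 FPKM in H460 and 8.58 FPKM in A549 (log2 difference 2.70, adjusted p 2.46e-08).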
